A study of Mus musculus with 31 samples.

Results

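Gene expression was compared between the livers of untreated MA/MyJ mice and those of NZW/LacJ, SM/J and WSB/EiJ mice. The members were the 4 arrays labelled MA/MyJ with vehicle, out of 16 vehicle arrays and 31 arrays in all, and they were chosen by these labels alone. Each was set against the mean of the other strains, in which NZW/LacJ, SM/J and WSB/EiJ counted equally with 4 vehicle arrays each. The study dosed these 4 inbred strains with sterile water or with the compound PF-04287881 and profiled the liver on 1-colour Affymetrix arrays. All animals were female and 8 to 10 weeks old when dosing began. Vehicle animals received sterile water by gavage each day for 7 days, and the left lobe of the liver was frozen 24 hours after the last dose. Treated animals received 600 mg/kg of PF-04287881 on the same schedule. WSB/EiJ is a wild-derived strain and the other strains are classical laboratory inbreds. Each array held RNA of 1 animal, and the p-values therefore reflect variation between animals of a strain, not variation across mouse strains in general.

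The liver carries out detoxification, nitrogen disposal and the storage and oxidation of fuels, mostly in hepatocytes. Inbred strains carry fixed sequence differences that alter how much messenger RNA a gene yields, and a difference under a probe on an array can lower its signal without any change in the transcript. Drug-metabolising enzymes, lysosomal enzymes and clock-controlled genes are all abundant in this organ, and several are known to vary between mouse strains.

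The values were log2 units per probe set, ran from 2.71 to 14.9, and had array medians between 6.43 and 6.54. All 16 vehicle arrays scored highest on the strain of their own label when strain-specific probe sets were taken from 14 treated arrays. The 4 MA/MyJ arrays scored between 0.890 and 1.04 on the MA/MyJ set, where 0 is the mean of the other strains and 1 the mean of the treated animals of that strain. WSB/EiJ vehicle animal 4 scored 0.338 on its own set, against 0.469, 0.606 and 0.750 in the other WSB/EiJ vehicle animals, and the array labelled WSB/EiJ treated animal 3 scored 0.0599 on WSB/EiJ and 0.783 on NZW/LacJ. That treated array was left out of every comparison of treated animals below. Without WSB/EiJ vehicle animal 4 the main comparison called 3496 genes in place of 3013, and 2956 of the 3013 were called in the same direction. Hepatocyte markers averaged 13.75 to 13.99 on every vehicle array, and albumin (Alb) stood at 14.75 in MA/MyJ with a difference of 0.00 from the other strains. Albumin lies near the highest values of the MA/MyJ vehicle arrays, 14.78 to 14.84, so that difference does not measure hepatocyte content.

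MA/MyJ livers differed from the mean of the other strains in 3013 of 12491 tested genes, 24.1% of them, at a Benjamini-Hochberg adjusted p under 0.05 in a limma fit (such genes are called). Of these, 1826 genes were higher in MA/MyJ (14.6% of all tested) and 1187 were lower (9.5%). Most differences were small, with a median size of 0.37 on the log2 scale among called genes and a median standard error of 0.0871 over all tested genes. In 2440 called genes (19.5% of all tested), 1485 higher and 955 lower, the MA/MyJ mean lay beyond the means of all 3 other strains. The remaining 573 called genes had at least 1 strain on the far side of MA/MyJ. In 557 genes (4.46%) MA/MyJ was called against each strain separately, 381 higher and 176 lower. In 655 called genes (5.24%) the 4 MA/MyJ arrays did not overlap any of the other 12. Beyond all 3 means and by more than 1 log2 unit, 110 genes were higher and 75 were lower. Genes were tested when at least 4 vehicle arrays exceeded 6.49, the median of all values. This was met only through the MA/MyJ arrays in 113 tested genes, those with fewer than 4 of the 12 other arrays above it, and 32 of these were called, all higher. They include Cox6b2, Zfp874a, Abcb1b, Cyp2r1 and Rec114, whose values below are descriptions. In whole liver, fewer cells of a type and less RNA per cell cannot be told apart.

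**Figure D1:**
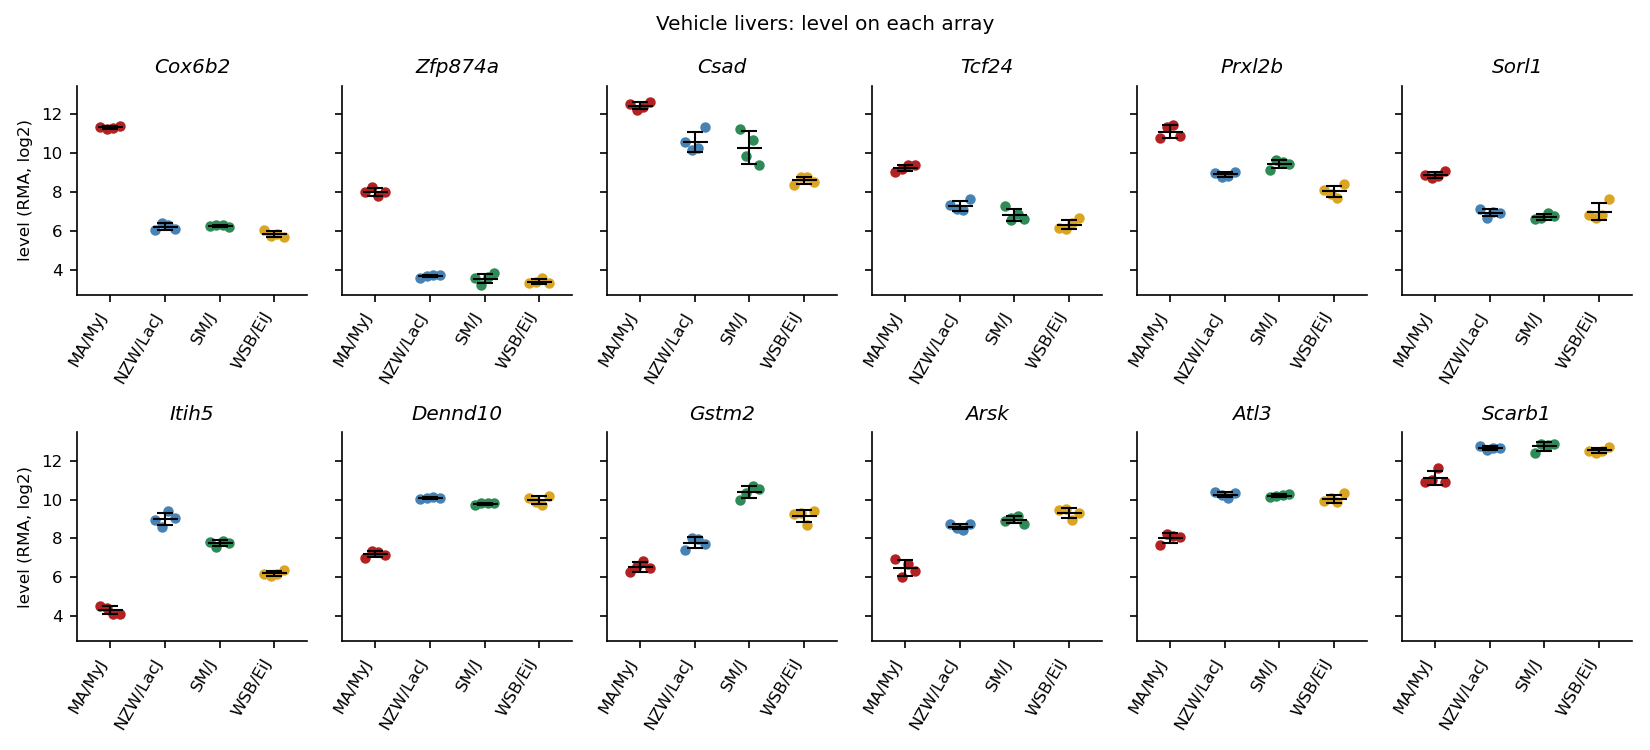
Level of 12 named genes on each of the 16 vehicle arrays (log2, 1 panel per gene); points are animals, horizontal marks and bars are the mean and SD of 4. In all 12 genes the MA/MyJ points lie apart from every other point, with Cox6b2 near 11.3 against at most 6.41 elsewhere and Dennd10 at or below 7.34 against at least 9.70 elsewhere.

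Among the genes higher in MA/MyJ, Cox6b2 and Zfp874a were dim in every other animal. Cox6b2, a testis-type isoform of a cytochrome c oxidase subunit, measured 11.36, 11.22, 11.31 and 11.37 in the MA/MyJ livers and 5.68 to 6.41 in the 12 others. The groups did not overlap, and the measured difference was 5.21 log2 units. Zfp874a, a zinc finger protein, measured 7.98, 8.24, 7.78 and 8.01 against 3.21 to 3.81, a measured difference of 4.47. For both genes the level in the other strains lies below the filter and was not shown to exceed background, so no fold or p is given.

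Csad encodes the decarboxylase that commits cysteine sulfinate to taurine synthesis. It measured 12.53, 12.20, 12.38 and 12.65 in MA/MyJ, 10.17 to 11.32 in NZW/LacJ, 9.37 to 11.23 in SM/J and 8.36 to 8.75 in WSB/EiJ. All MA/MyJ arrays lay above all others, by 2.62 ± 0.26 (SE) against the mean of the 3 strains (limma, adjusted p = 3.6e-06), or 6.16-fold. Prxl2b, which encodes a prostaglandin F synthase, measured 10.77, 11.34, 11.43 and 10.86 against 7.69 to 9.64 elsewhere. Abcb1b, a P-glycoprotein that exports drugs and other small molecules, was nearly constant in MA/MyJ at 7.69, 7.76, 7.80 and 7.81 and ranged from 4.53 to 6.84 elsewhere. Prxl2b did not overlap between MA/MyJ and the other strains, and its difference was 2.31 ± 0.14. Abcb1b passed the filter only through the MA/MyJ arrays, and its measured difference of 2.30 is a description.

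Sorl1, a receptor that sorts proteins between Golgi and endosomes, measured 8.89, 8.73, 8.84 and 9.08 in MA/MyJ and 6.59 to 7.62 elsewhere. Its 3 comparison strains lay close together, so that MA/MyJ was the strain apart, by 2.01 ± 0.14 (limma, adjusted p = 5.1e-08). Tcf24, a basic helix-loop-helix factor, measured 9.05, 9.19, 9.37 and 9.37 against 6.12 to 7.66. Spc25, a subunit of the kinetochore complex that holds microtubules, measured 9.89, 10.07, 9.96 and 9.70 against 7.17 to 8.75. Cyp2r1, the vitamin D 25-hydroxylase, measured 7.03, 7.40, 7.79 and 6.90 against 4.18 to 6.54. For Tcf24 and Spc25 the MA/MyJ arrays were again the 4 highest, and the differences were 2.43 ± 0.13 and 1.83 ± 0.11. Cyp2r1 passed the filter only through the MA/MyJ arrays, and its measured difference of 2.06 is a description.

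For several other large differences another strain was high as well. Gdpd3, a glycerophosphodiesterase of lysophospholipid metabolism, measured 10.06 to 10.82 in MA/MyJ and 9.59 to 10.75 in SM/J, which overlapped, while NZW/LacJ and WSB/EiJ stayed between 6.29 and 6.65. Snrnp25, a protein of the minor spliceosome, measured 10.53 to 10.82 in MA/MyJ and 10.06 to 10.28 in NZW/LacJ, with the other strains between 6.98 and 8.14. Nlrp12, an intracellular sensor of the NOD-like family, was 10.68 to 11.51 in MA/MyJ and 10.40 to 10.85 in NZW/LacJ, and a difference between them did not pass the test (limma, adjusted p = 0.48). Nox4, an NADPH oxidase that makes hydrogen peroxide, and Sdr9c7, a short-chain dehydrogenase, also had NZW/LacJ as the nearest strain. Their differences from the mean of 3 strains were 2.59 ± 0.32 and 2.39 ± 0.34. Rec114, a factor of meiotic recombination, spread widely in MA/MyJ, from 7.01 to 9.47, and from 4.75 to 7.19 elsewhere. Rec114 passed the filter only through the MA/MyJ arrays, and its measured difference of 2.10 is a description.

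Itih5, a heavy chain of the inter-alpha-trypsin inhibitor family that binds hyaluronan, had the largest negative difference. It measured 4.51, 4.43, 4.13 and 4.12 in MA/MyJ, 8.61 to 9.39 in NZW/LacJ, 7.55 to 7.89 in SM/J and 6.06 to 6.40 in WSB/EiJ. The strains formed separate levels with MA/MyJ the lowest, and the difference was -3.35 ± 0.12 (limma, adjusted p = 2.1e-11). Dennd10, a DENN-domain protein of vesicle traffic, measured 6.99, 7.34, 7.31 and 7.16 in MA/MyJ. The other 12 animals lay between 9.70 and 10.18 with no overlap, and the difference was -2.75 ± 0.08 (limma, adjusted p = 1.9e-12).

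Atl3, an atlastin that shapes the endoplasmic reticulum, showed the same arrangement, with 7.67, 8.21, 8.14 and 8.06 in MA/MyJ and 9.90 to 10.37 elsewhere. Arsk, a lysosomal sulfatase acting on glycosaminoglycans, measured 6.95, 6.01, 6.66 and 6.35 against 8.45 to 9.54. Scarb1, the hepatic receptor that takes up cholesterol from high-density lipoprotein, measured 10.89 to 11.63 in the 4 MA/MyJ animals against 12.39 to 12.88. In all of them the lowest animal of the other strains was above the highest MA/MyJ animal, and the differences were -2.14 ± 0.10, -2.47 ± 0.14 and -1.53 ± 0.12. Scarb1 was the 1 gene called against each strain among 27 tested genes of apolipoproteins and lipoprotein handling.

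Stk25, a kinase found on lipid droplets, measured 7.03 to 7.40 in MA/MyJ and 8.36 to 10.75 elsewhere. Cyb561, a membrane protein that transfers electrons from ascorbate, measured 5.97 to 6.48 against 7.66 to 8.73. Atp11b, a phospholipid flippase, measured 8.19 to 8.55 against 9.32 to 10.47. None of these overlapped, and their differences were -2.12 ± 0.08, -2.01 ± 0.12 and -1.58 ± 0.15. Tfrc, the transferrin receptor of cellular iron uptake, ran from 7.39 to 8.69 in MA/MyJ and reached 10.71 to 11.06 in SM/J. MA/MyJ was called lower against each strain for Tfrc, though 1 WSB/EiJ animal at 8.52 fell within its range, and the difference was -1.67 ± 0.22.

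A single high strain set some of the negative differences. Col5a2, a fibrillar collagen chain, measured 11.38 to 12.46 in WSB/EiJ, 5.70 to 6.02 in MA/MyJ and 6.15 to 7.11 in the remaining strains. Its difference from the mean of 3 strains was -2.39 ± 0.16, and it was -0.64 against NZW/LacJ and SM/J alone. Sult1e1, the estrogen sulfotransferase, measured 12.75 to 13.33 in WSB/EiJ, 6.47 to 8.35 in MA/MyJ and 6.42 to 8.38 in SM/J. Its difference of -2.26 ± 0.32 became -0.60 without WSB/EiJ, which did not pass the test (limma, adjusted p = 0.20).

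A sequence difference under a probe can mimic a change in level, so the other probe sets of each called gene were read. Of the 3013 called genes, 1322 had another tested probe set. At least 1 of these was called in the same direction in 735 genes (55.6%), and at least 1 was called in the opposite direction in 54 (4.08%). Among genes called against each strain, 175 of 247 (70.9%) had another probe set called in the same direction and 10 had another called in the opposite direction. Of the 34 genes named for their size or their gap, 8 had another tested probe set, and for 7 of these at least 1 other was called in the same direction: Nox4, Sdr9c7, Arsk, Col5a2, Atl3, Tfrc and Scarb1. For Arsk that other probe set gave -0.34, against -2.47 on the one shown. For Tfrc the others gave -0.71 and -0.47, against -1.67 on the one shown. The other probe sets of Scarb1 stood at 9.99 in MA/MyJ for both, against 11.53 to 11.83 in the other strains. For the remaining 26 genes, Cox6b2, Zfp874a, Csad, Itih5, Dennd10 and Gstm2 among them, only the probe set shown passed the filter on dim values, and a sequence difference under its probes was not tested. Over the 107 genes described with values here, 38 had another tested probe set, and in 17 of them at least 1 other was not called in the same direction. These 17 are Arntl, Atl3, Atp5o, Bub3, Clec4g, Ctsf, Ehd3, Flt4, H2-D1, H2-K1, Mgst3, Ndufs4, Pdgfrb, Per3, Rgs5, Rora and Uqcr10.

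For Bub3, Uqcr10 and H2-D1 the disagreement was large enough that no direction is drawn. Bub3, a protein of the spindle checkpoint, was low only in WSB/EiJ, at 4.42 to 5.09 against 10.15 to 10.62 in the other strains. Its other tested probe set measured 8.55 in MA/MyJ and 8.45 in WSB/EiJ. Uqcr10, a small subunit of respiratory complex III, was 0.29 ± 0.06 higher in MA/MyJ on its brightest probe set, with means of 12.67 in MA/MyJ and 12.34 to 12.44 elsewhere. The other probe sets of Uqcr10 stood at 7.05 and 7.40 in MA/MyJ and at 10.26 to 10.83 elsewhere, and the mean over all 3 probe sets was -2.12. H2-D1, a classical major histocompatibility gene that is highly polymorphic between strains, was 0.75 ± 0.07 higher on its brightest probe set, while 6 of its 8 other probe sets were called lower and 2 higher. A sequence difference under the probes of these 3 genes was not tested.

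Glutathione transferases, Cyp2 cytochromes P450 and sulfotransferases were called more often than the average tested gene, and most of those called were lower in MA/MyJ. Of 11 glucuronosyltransferases, another family of conjugating enzymes, 1 was called. Of 26 tested genes of glutathione transfer and synthesis, 9 were lower and 4 were higher, 50% in all beside 24.1% of all tested genes, with a median difference of -0.07 beside -0.001135 over all tested genes. Gstm2, a mu-class glutathione transferase, measured 6.25, 6.57, 6.86 and 6.49 in MA/MyJ, 7.40 to 8.05 in NZW/LacJ, 8.71 to 9.41 in WSB/EiJ and 10.00 to 10.67 in SM/J. MA/MyJ was the lowest strain without overlap, by -2.57 ± 0.15 (limma, adjusted p = 1.0e-08). Gstm5, of the same class, measured 7.58, 6.88, 7.08 and 7.48 against 8.23 to 9.31 elsewhere, also without overlap, and Gstm6 differed by -1.04 ± 0.17. These 3 mu-class genes were called against each strain. Members of this class resemble each other in sequence, so signal shared between their probe sets was not tested.

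Not every glutathione gene was lower. Mgst3, a microsomal glutathione transferase, measured 10.61 to 11.20 in MA/MyJ and 8.13 to 10.17 elsewhere and was 1.47 ± 0.25 higher. Gclc, the catalytic subunit of the rate-limiting ligase of glutathione synthesis, was 0.49 ± 0.08 higher, from 12.50 to 12.71 against 11.76 to 12.36. The groups did not overlap for either gene. Mgst2 differed by -1.52 ± 0.08 with NZW/LacJ alone high, at 10.85 to 11.17 against 5.82 to 6.38 in all other animals, and its difference was 0.10 without NZW/LacJ. Among 26 antioxidant genes controlled by NRF2, 3 were higher and 4 were lower, near the share over all genes. Nqo1, a quinone reductase of that list, was -0.73 ± 0.09, with WSB/EiJ high at 9.10 to 9.62 and MA/MyJ at 7.57 to 7.75.

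Of 26 tested cytochromes P450 of the Cyp2 families, 10 were lower and 4 higher in MA/MyJ, with a median difference of -0.18. That is 53.8% in all beside 24.1% of all tested genes. Cyp2r1, counted among the higher genes, passed the filter only through the MA/MyJ arrays. Cyp2j6, which oxidises polyunsaturated fatty acids, measured 8.50, 8.93, 8.80 and 8.92 in MA/MyJ and 9.27 to 10.55 elsewhere, a difference of -1.28 ± 0.09 without overlap. Cyp2c37, an arachidonic acid epoxygenase and hydroxylase in mice, was -0.89 ± 0.18 and was called against each strain. Cyp2b10, the mouse enzyme induced by phenobarbital-like compounds, was 1.22 ± 0.34 higher than the mean of 3 strains. WSB/EiJ was higher still, with a mean of 13.32 (11.88 to 14.03) against 11.86 (11.18 to 12.56) in MA/MyJ. The Cyp2b10 difference no longer passed without MA/MyJ animal 1 (limma, adjusted p = 0.058) or animal 3 (limma, adjusted p = 0.070). The number of Cyp2 genes called lower was 5 without MA/MyJ animal 4.

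Of 11 tested sulfotransferases, 4 were lower and 1 was higher, 45.5% in all beside 24.1% of all tested genes. Beside Sult1e1, Sult2a2, which sulfates hydroxysteroids and bile acids, measured 12.46, 11.02 and 11.46 in MA/MyJ animals 1 to 3, 13 in animal 4 and 12.54 to 13.89 elsewhere. It was -1.63 ± 0.29 with a wide spread in MA/MyJ, whose animal 4 overlapped the lowest SM/J animal. Sult1a1, a phenol sulfotransferase, was -0.41 ± 0.06 with no overlap, at 13.08 to 13.30 against 13.36 to 13.87. Sult1b1, which sulfates thyroid hormones, was -0.79 ± 0.21 and did not pass without MA/MyJ animal 1 (limma, adjusted p = 0.060). Sult1c2 was 1.10 ± 0.15 higher, with WSB/EiJ low at 5.15 to 5.89, and 0.21 without WSB/EiJ in the reference.

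Genes known to differ between male and female mouse liver were tested as a list of 22. Of these, 5 were higher and 6 were lower in these females, 50% in all beside 24.1% of all tested genes. Bcl6, a repressor that is male-predominant in mouse liver, was 1.42 ± 0.28 higher and was called against each strain, at 8.94, 8.86, 9.42 and 10.03 against 7.05 to 8.92, the highest WSB/EiJ animal reaching into the MA/MyJ range. Slco1a1, a male-predominant organic anion transporter, was 1.47 ± 0.24 higher, and WSB/EiJ was low at 8.25 to 10.08. With WSB/EiJ left out of the reference the Slco1a1 difference was 0.41. Cyp4a12a, a male-predominant fatty acid hydroxylase, was 2.09 ± 0.47 higher and varied from 8.65 to 11.07 among MA/MyJ animals. Without WSB/EiJ it was 1.07, which did not pass (limma, adjusted p = 0.13). The female-predominant Cyp3a16 and Cyp3a44 were -2.28 ± 0.49 and -1.84 ± 0.25, and for both the MA/MyJ arrays overlapped those of SM/J. Slc22a27, an organic anion transporter, was -1.61 ± 0.28 and also overlapped SM/J. Cyp2d9, a male-predominant P450, was called lower and the female-predominant Cyp2b10 higher, so no shift toward either sex is drawn.

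Genes on the lysosomal list were higher in MA/MyJ more often than the average gene, with Hexa a large exception. Arsk, the lysosomal sulfatase described above at -2.47, was not a member of this list. Of 52 tested members, 17 were higher and 4 were lower, 40.4% in all beside 24.1% of all tested genes. The median difference was 0.13, and 16 of the 17 higher members lay beyond all 3 strain means. Arsa, the sulfatase that degrades sulfatide, measured 10.30, 10.33, 10.10 and 10.29 in MA/MyJ, 9.68 to 9.99 in SM/J, 8.81 to 9.22 in NZW/LacJ and 8.23 to 9.07 in WSB/EiJ. MA/MyJ was highest without overlap, by 1.11 ± 0.12 (limma, adjusted p = 6.8e-06). Glb1, the lysosomal beta-galactosidase, Tpp1, a tripeptidyl peptidase, and Ctsf, cathepsin F, were called higher against each strain by 0.64 ± 0.11, 0.47 ± 0.07 and 0.45 ± 0.06. Galns, a sulfatase of keratan sulfate breakdown, was 0.65 ± 0.08 higher but close to NZW/LacJ, and Manba, the beta-mannosidase, was 0.68 ± 0.10 higher through a low level in WSB/EiJ alone.

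Hexa, the alpha subunit of beta-hexosaminidase A, which degrades the ganglioside GM2, went the other way. It measured 9.02, 9.10, 8.94 and 9.07 in MA/MyJ, 10.18 to 10.39 in NZW/LacJ, 10.60 to 11 in SM/J and 10.44 to 10.73 in WSB/EiJ. No animal of another strain came within 1 log2 unit of the MA/MyJ maximum, and the difference was -1.52 ± 0.07 (limma, adjusted p = 1.5e-09). No other probe set for Hexa was tested. The count of lower lysosomal genes was 1 or 2 without any 1 of the 4 MA/MyJ animals. Of the autophagy list, 4 of 36 were higher and 3 lower, below the share over all genes.

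Genes of fatty acid oxidation and targets of the nuclear receptor PPAR alpha were higher in MA/MyJ as a group. Of 40 tested members, 18 (45% of them, beside 14.6% of all genes) were higher and 1 was lower, with a median difference of 0.23, and 11 of the higher members lay beyond all 3 strain means. Pdk4, the kinase that restrains glucose oxidation during fasting, measured 9.98, 9.95, 9.87 and 10.90 in MA/MyJ, 6.83 to 7.36 in NZW/LacJ, 8.19 to 10.08 in SM/J and 8.56 to 9.84 in WSB/EiJ. MA/MyJ animal 4 was above its group, SM/J overlapped MA/MyJ, and the difference was 1.75 ± 0.30 (limma, adjusted p = 5.8e-04). Acot2 and Acot1, thioesterases that release fatty acids from coenzyme A in mitochondria and cytosol, were 1.04 ± 0.13 and 0.76 ± 0.13 higher. Vnn1, a pantetheinase, was 0.74 ± 0.10 higher, at 13.31 to 13.66 against 11.59 to 12.01 in NZW/LacJ and 12.95 to 13.44 in the other strains. Its other tested probe set gave 2.56. There WSB/EiJ was lowest at 7.70, with NZW/LacJ at 9.53, SM/J at 12.03 and MA/MyJ at 12.32.

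NZW/LacJ was the lowest strain for these 4 genes on the brightest probe set of each, and 1 member stood apart from all strains. Ech1, an isomerase that prepares unsaturated fatty acids for oxidation, measured 13.76, 13.72, 13.61 and 13.82 in MA/MyJ, 12.84 to 12.97 in NZW/LacJ, 13.26 to 13.38 in SM/J and 13.12 to 13.31 in WSB/EiJ. It did not overlap and was the only member of this list called against each strain, by 0.58 ± 0.05 (limma, adjusted p = 1.9e-06). Without NZW/LacJ in the reference, Acot1 was 0.37 and Vnn1 was 0.24, neither past the test (limma, adjusted p = 0.055 and 0.12). The count of higher members was 11 without MA/MyJ animal 2 or 4, 22 without WSB/EiJ animal 4, 11 without WSB/EiJ in the reference, and 30 without SM/J in the reference.

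**Figure D2:**
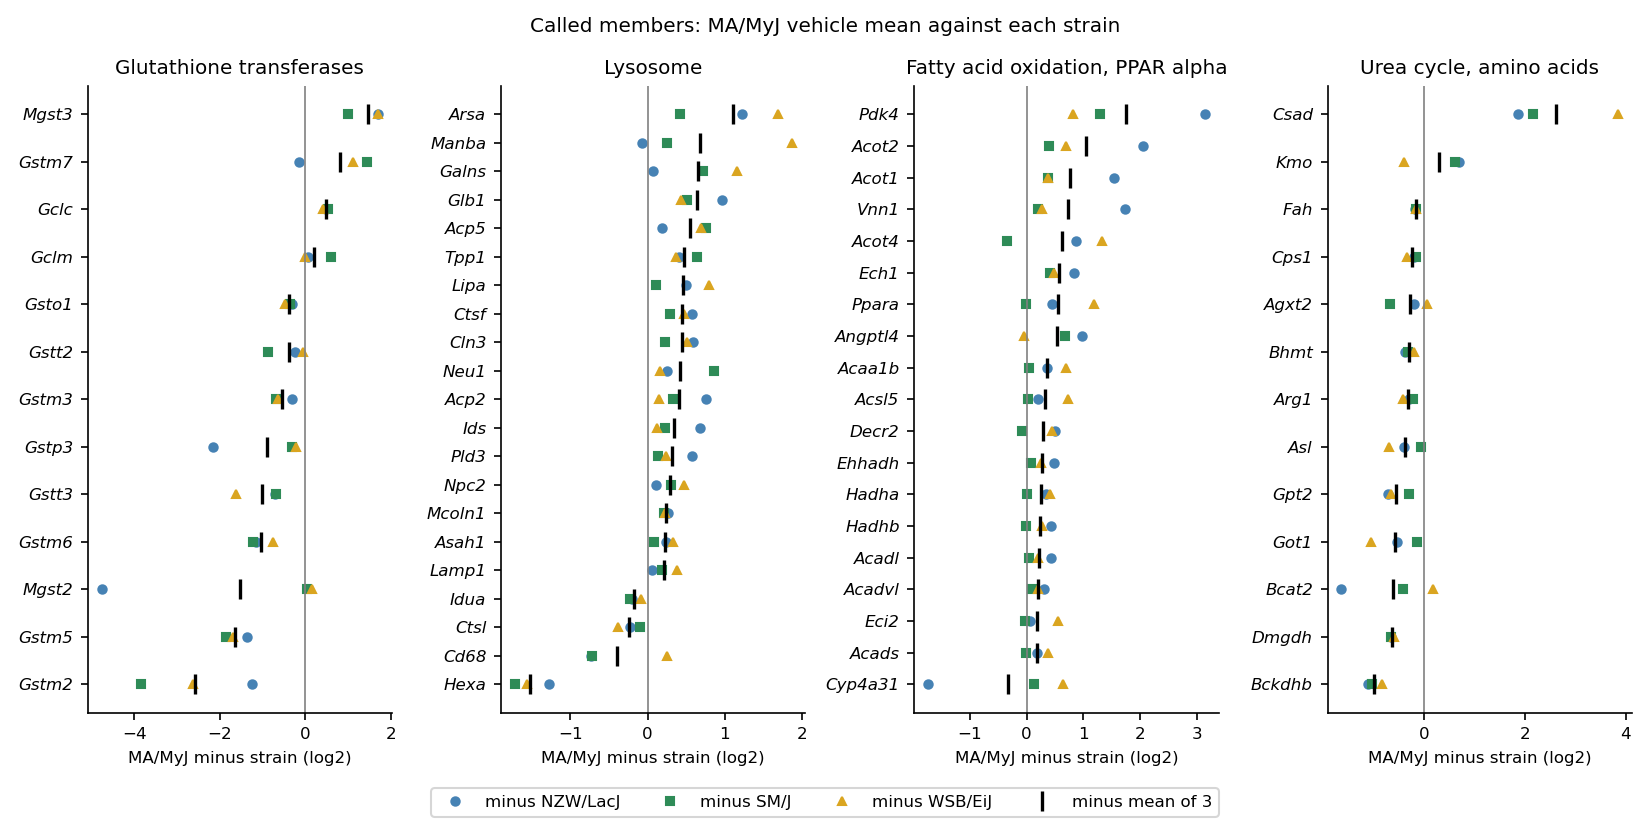
Difference between the MA/MyJ vehicle mean and each other strain (coloured symbols) and the mean of the 3 (black bars), in log2 units, for the called members of 4 lists, 1 gene per line. Hexa, Bckdhb, Gstm2 and Gstm5 lie to the left of 0 against every strain, Arsa, Csad and Ech1 to the right, and most fatty acid oxidation genes lie nearest to SM/J.

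Of 46 tested genes of nitrogen disposal and amino acid breakdown, 11 were lower in MA/MyJ and 2 were higher, Csad and Kmo. These are 28.3% of the list, near the 24.1% over all tested genes, of which 9.5% were lower and 14.6% higher, and the median difference of the list was -0.09. Bckdhb, a subunit of the branched-chain ketoacid dehydrogenase, measured 11.05, 11.36, 11.29 and 11.07 in MA/MyJ and 11.97 to 12.43 elsewhere. Dmgdh, which demethylates dimethylglycine in mitochondria, measured 12.34 to 12.52 against 12.86 to 13.24. Neither overlapped, and the differences were -0.99 ± 0.07 (limma, adjusted p = 6.7e-08) and -0.63 ± 0.07. Of the urea cycle, Arg1, the arginase that releases urea, was -0.31 ± 0.05, Asl, argininosuccinate lyase, was -0.38 ± 0.08, and Cps1, the entry enzyme, was -0.23 ± 0.05. Arg1 and Cps1 did not overlap with any other animal, and Asl overlapped SM/J.

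Of 26 genes of glucose and glycogen metabolism, 4 were lower and 1 was higher, a share near that over all genes. The higher member was Igfbp1, and no shared function is drawn from the 4 lower members. Gbe1, the glycogen branching enzyme, was -0.69 ± 0.09, at 8.48 to 8.75 against 8.98 to 9.97 with no overlap. Slc37a4, which carries glucose 6-phosphate into the endoplasmic reticulum, was -0.60 ± 0.08, and Pygl, the liver glycogen phosphorylase, was -0.46 ± 0.09. Slc2a2, the glucose transporter of the hepatocyte, was -0.45 ± 0.09 and was called against each strain, as Gbe1 was. SM/J overlapped MA/MyJ for Slc37a4 and Pygl.

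Of 17 tested hepatocyte markers, 4 were lower and none was higher, 23.5% in all. Over all tested genes 24.1% were called and 9.5% were called lower. Asgr2, a subunit of the asialoglycoprotein receptor, measured 9.51, 9.92, 9.91 and 9.78 against 10.02 to 11.63 elsewhere, without overlap, and the difference was -0.91 ± 0.10. Ahsg, fetuin A, was -0.27 ± 0.05, and Arg1 and Cps1 were the others. The mean level over the 17 markers was 13.75 to 13.87 on the MA/MyJ arrays, 13.86 to 13.89 in NZW/LacJ, 13.90 to 13.95 in SM/J and 13.89 to 13.99 in WSB/EiJ. The part of the marker levels in the urea cycle and conjugation results was not tested.

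Of 65 nuclear-encoded subunits of the respiratory chain, 10 were higher and 1 was lower, 16.9% in all and below the 24.1% over all tested genes, and the median difference was 0.03. Ndufa12, an accessory subunit of complex I, measured 13.27, 13.13, 13.27 and 13.24 in MA/MyJ and 12.05 to 12.77 elsewhere. It did not overlap and was 0.71 ± 0.05 higher (limma, adjusted p = 6.6e-08). Its other bright probe set gave 0.18, with MA/MyJ at 12.07 and WSB/EiJ above it at 12.12. Ndufs4, of the same complex, was 0.35 ± 0.07 higher and overlapped NZW/LacJ and SM/J, and Atp5o, a subunit of the ATP synthase stalk, was 0.25 ± 0.05 higher without overlap. Of 20 genes of cholesterol synthesis and uptake, 5 were lower and none was higher, 25% in all. Over all tested genes 24.1% were called and 9.5% were called lower. Insig1, which retains the sterol sensor in the endoplasmic reticulum, was -0.51 ± 0.12, and Nsdhl, a sterol dehydrogenase, was -0.69 ± 0.15. Dhcr7, the last enzyme of the pathway, was -0.79 ± 0.12 and Msmo1, a methylsterol oxidase, was -0.57 ± 0.17. WSB/EiJ lay close to MA/MyJ for Insig1, Nsdhl and Msmo1 and SM/J for Dhcr7, and none of these 4 genes was called against that strain. Without NZW/LacJ in the reference Nsdhl was -0.35 and did not pass (limma, adjusted p = 0.11). The count of lower sterol genes was 3 without MA/MyJ animal 1 and 2 without NZW/LacJ in the reference, and 3 genes were called higher without WSB/EiJ animal 4.

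Several clock genes had MA/MyJ and WSB/EiJ on one side and NZW/LacJ and SM/J on the other. The clock is a loop in which BMAL1, encoded by Arntl, and its partners bind E-boxes and drive repressors of the Per, Cry and Nr1d families, while DBP and NFIL3 act on D-boxes and nuclear receptors act on AGGTCA motifs. A promoter window is printed for each of these motifs, from 3 genes called below that belong to different arms of this loop. They run from 250 bases before to 50 after the start given by RefSeq on GRCm38.p6. Capitals mark the D-box TTATGTAA in Per3, the core motif AGGTCA in Nfil3 and the E-box CACGTG in Cry1, on either strand. Their positions are chr4:151044616-151044915, chr13:52980990-52981289 and chr10:85185005-85185304, all on the minus strand.
Per3: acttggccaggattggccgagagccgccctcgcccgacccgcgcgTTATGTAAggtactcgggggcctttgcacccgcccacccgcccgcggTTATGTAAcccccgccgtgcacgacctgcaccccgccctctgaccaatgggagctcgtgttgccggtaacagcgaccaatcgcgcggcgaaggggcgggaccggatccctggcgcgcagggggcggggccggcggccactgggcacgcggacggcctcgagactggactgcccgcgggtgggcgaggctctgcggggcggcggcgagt
Nfil3: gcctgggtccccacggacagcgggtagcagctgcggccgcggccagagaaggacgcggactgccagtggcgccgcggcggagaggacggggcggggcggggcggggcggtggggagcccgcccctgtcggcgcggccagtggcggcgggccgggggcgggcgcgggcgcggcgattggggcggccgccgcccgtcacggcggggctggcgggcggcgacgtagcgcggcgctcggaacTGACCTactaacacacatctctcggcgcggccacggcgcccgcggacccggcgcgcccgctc
Cry1: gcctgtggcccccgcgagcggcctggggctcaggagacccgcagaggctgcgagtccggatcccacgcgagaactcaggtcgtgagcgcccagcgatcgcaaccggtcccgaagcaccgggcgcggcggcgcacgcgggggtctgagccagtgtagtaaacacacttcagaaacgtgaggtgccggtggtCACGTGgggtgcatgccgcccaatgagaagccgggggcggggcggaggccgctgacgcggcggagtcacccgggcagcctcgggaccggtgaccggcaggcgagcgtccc
All 8 called clock genes matched a promoter, in 9 windows. A D-box was in 1 window, an E-box in 1 and AGGTCA in 2, the other being a window of Arntl. Over 32851 windows of the same length, 0.938% held the D-box, 7.15% the E-box and 16.3% the AGGTCA motif. These matches describe letters in a window and are not shown to be sites in use.

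Of 18 tested clock genes, 5 were higher and 3 were lower in MA/MyJ, 44.4% in all beside 24.1% of all tested genes, and none was called against each strain. Nr1d1, the repressor REV-ERB alpha, measured 7.23, 7.14, 7.27 and 6.66 in MA/MyJ, 6.80, 6.81, 7.23 and 8.33 in WSB/EiJ, 9.03 to 9.35 in NZW/LacJ and 9.24 to 9.46 in SM/J. MA/MyJ overlapped WSB/EiJ and lay below the other strains, and the difference from the mean of 3 was -1.54 ± 0.20 (limma, adjusted p = 5.8e-05). Nfil3, a D-box repressor, was high in the strains in which Nr1d1 was low, at 10.24, 10.25, 10.58 and 10.42 in MA/MyJ, 9.91 to 10.52 in WSB/EiJ, 8.32 to 8.83 in NZW/LacJ and 7.71 to 9.47 in SM/J. Against WSB/EiJ alone Nr1d1 was -0.22 (limma, adjusted p = 0.55) and Nfil3 was 0.18 (limma, adjusted p = 0.63), neither past the test.

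Dbp, a D-box activator, measured 7.81, 8.09, 8.30 and 7.31 in MA/MyJ, 6.71 to 6.90 in WSB/EiJ, 9.92 to 10.42 in NZW/LacJ and 8.98 to 11.40 in SM/J. It lay between WSB/EiJ and the other strains without overlap, at -1.27 ± 0.30 from the mean of 3. Per3 also had its MA/MyJ mean between WSB/EiJ and the other strains and was -0.58 ± 0.18, with MA/MyJ at 6.87 to 7.34, WSB/EiJ at 6.15 to 6.88 and the lowest SM/J animal at 7.23. Arntl, at 9.74 to 9.92, and Npas2, a partner of BMAL1, at 6.84 to 8.04, were 0.68 ± 0.23 and 0.65 ± 0.17 higher. WSB/EiJ lay above MA/MyJ for Arntl and overlapped it for Npas2. A dimmer probe set of Arntl was called in the opposite direction. Cry1, a repressor of BMAL1, was 0.80 ± 0.22 higher with SM/J low at 5.92 to 6.33, and Rora, an activator of Arntl, was 0.29 ± 0.09 higher. The hour at which each strain was sampled is not given in the sources used here, so hour and strain cannot be told apart. The clock list had 3, 2 and 2 higher members without MA/MyJ animals 2, 3 and 4, and 6 lower members without WSB/EiJ in the reference.

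**Figure D3:**
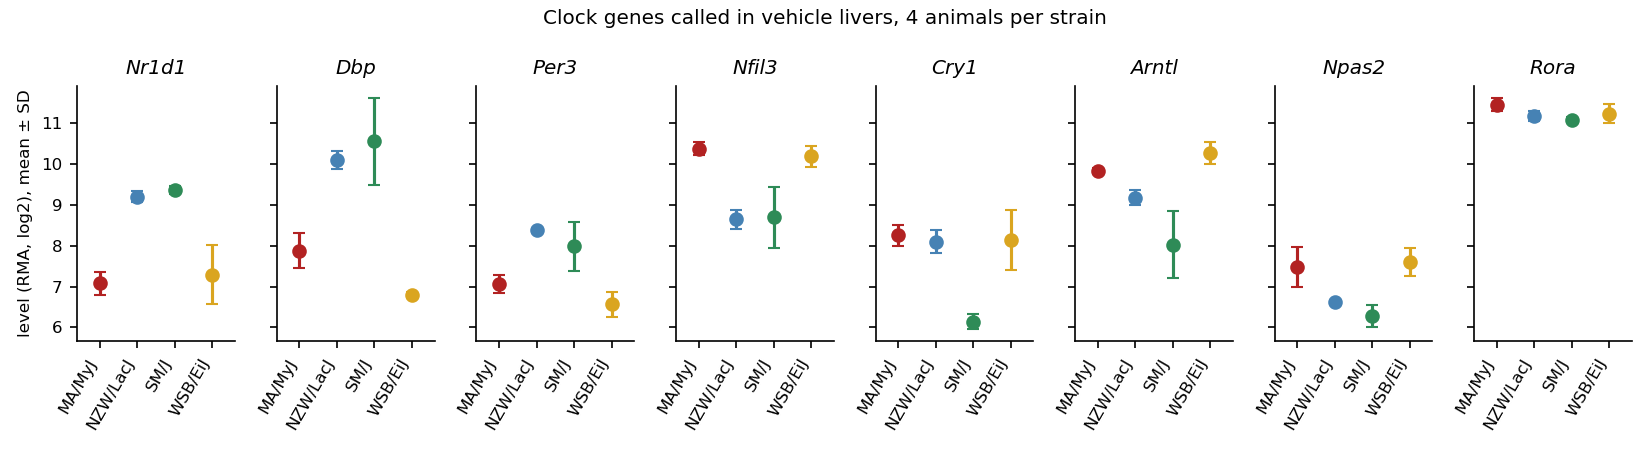
Level of the 8 called clock genes in vehicle livers (log2, mean ± SD of 4 animals per strain, 1 panel per gene). MA/MyJ and WSB/EiJ share the low levels of Nr1d1 and the high levels of Nfil3, and NZW/LacJ and SM/J the reverse.

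Matrix genes and markers of the non-parenchymal cells moved in different directions. Of 29 genes of extracellular matrix and fibrosis, 10 were lower and 3 were higher, 44.8% in all beside 24.1% of all tested genes. The median difference was -0.16, and 9 of the 10 lower genes lay beyond all 3 strain means. Col14a1, a fibril-associated collagen, was -0.71 ± 0.15 and overlapped WSB/EiJ and NZW/LacJ. Col6a1, a chain of microfibrillar collagen VI, measured 6.72, 7.48, 7.33 and 7.10 in MA/MyJ and 7.40 to 8.14 elsewhere, and at -0.65 ± 0.14 it was the member called against each strain. The count of lower matrix genes was 5 without SM/J in the reference. Of 14 stellate cell markers, 3 were lower and 1 was higher, 28.6% in all beside 24.1% of all tested genes. Pdgfrb, the platelet-derived growth factor receptor of these cells, was -0.45 ± 0.12, and Rgs5, a marker of pericytes, was -0.44 ± 0.08. The 3 other tested probe sets of Rgs5 gave -1.53, -0.50 and -0.17, so its size is uncertain. Colec11, a soluble collectin, was 0.62 ± 0.13 higher with WSB/EiJ low at a mean of 10.14, and 0.30 without WSB/EiJ in the reference. The mean over the stellate list was 9.12 to 9.49 in MA/MyJ and 8.96 to 9.59 elsewhere, which overlapped, and its part in the matrix result was not tested. Without MA/MyJ animal 1, 1 stellate marker was lower.

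Markers of sinusoidal endothelium were higher where they were called, 5 of 18 (27.8%) with none lower and a median difference of 0.16. Over all tested genes 24.1% were called and 14.6% were called higher. Ehd3, an endocytic recycling protein of these cells, measured 10.81, 10.71, 10.27 and 11.28 in MA/MyJ and 9.39 to 10.06 elsewhere, a difference of 1.06 ± 0.13 (limma, adjusted p = 3.3e-05) without overlap. Its other tested probe set gave -0.09 (limma, adjusted p = 0.57), with MA/MyJ at 8.97 and the other strains at 8.85 to 9.18. F8, coagulation factor VIII, was 0.44 ± 0.10 higher, Flt4, the receptor of lymphatic growth factors, was 0.32 ± 0.09, Clec4g, a lectin of these cells, was 0.39 ± 0.12, and Dnase1l3, a secreted nuclease, was 0.49 ± 0.13. The mean over the list was 9.18 to 9.51 in MA/MyJ, 9.17 to 9.29 in NZW/LacJ, 8.95 to 9.36 in SM/J and 8.88 to 9.16 in WSB/EiJ. The count was 3 without MA/MyJ animal 1 and 2 without animal 4.

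The labels record Kupffer cell vacuolation as present for every MA/MyJ and NZW/LacJ animal, vehicle included, and absent in the other strains. This record is the same for vehicle and treated animals of a strain. Whether it describes each animal or its strain cannot be told from the labels. Of 19 Kupffer cell markers, 5 were lower in MA/MyJ and none was higher, 26.3% in all. Over all tested genes 24.1% were called and 9.5% were called lower. None of the 5 lay beyond all 3 strain means. Fcna, a ficolin of these cells, measured 9.60, 9.55, 9.58 and 9.64 in MA/MyJ, 9.89 to 10.25 in NZW/LacJ, 10.40 to 10.82 in SM/J and 9.36 to 9.62 in WSB/EiJ. MA/MyJ overlapped WSB/EiJ and was below the others, and the difference was -0.45 ± 0.08. Folr2, a folate receptor, Cd68, a lysosomal glycoprotein of macrophages, C1qa, a chain of complement C1q, and Csf1r, the receptor of macrophage growth factor, were -0.49 ± 0.14, -0.40 ± 0.13, -0.36 ± 0.13 and -0.34 ± 0.11. The mean over the 19 markers was 8.81 to 9.05 in MA/MyJ, 9.25 to 9.63 in NZW/LacJ, 9.23 to 9.58 in SM/J and 8.22 to 8.70 in WSB/EiJ, so the strains formed 3 levels with MA/MyJ in the middle. The count of 5 fell to 2, 1, 3 and 1 without MA/MyJ animals 1 to 4 and to 2 or 3 without NZW/LacJ animal 1 or 2. It was 2 with animal number as a block, 10 without WSB/EiJ in the reference, 1 without NZW/LacJ and 0 without SM/J. Of 6 neutrophil and 5 adipose or mesothelial markers, none was called.

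Among genes of complement and coagulation, 8 of 39 were higher and 5 lower, 33.3% in all beside 24.1% of all tested genes. Cfhr2, a factor H-related protein, measured 11.45, 11.58, 11.55 and 11.58 in MA/MyJ and 9.93 to 11.07 elsewhere, higher by 0.89 ± 0.10 without overlap (limma, adjusted p = 1.3e-05). C9 and C8b, which form the membrane attack complex, were 1.44 ± 0.22 and 0.91 ± 0.12 higher with WSB/EiJ low, at 8.15 to 9.69 and 9.31 to 9.59. Without WSB/EiJ in the reference the C9 difference was 0.29 (limma, adjusted p = 0.38), that of C8b was 0.12, and 3 genes of the list were higher. The count of 5 lower was 2 or 3 without MA/MyJ animal 1, 2 or 4. Serpina3n, an acute phase protease inhibitor, measured 12.12 to 12.74 against 12.76 to 14.04 and was -0.72 ± 0.10. H2-K1, a classical class I histocompatibility gene, was -1.46 ± 0.13, with MA/MyJ at 10.42 to 11.23, WSB/EiJ overlapping at 10.93 to 11.51, and the other strains at 12.65 to 12.93. Another bright probe set of H2-K1 gave -0.12 (limma, adjusted p = 0.20), with MA/MyJ at 10.32 and the other strains at 10.24 to 10.54. Of 37 interferon-stimulated genes, 3 were higher and 1 was lower, below the share over all genes.

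**Figure D4:**
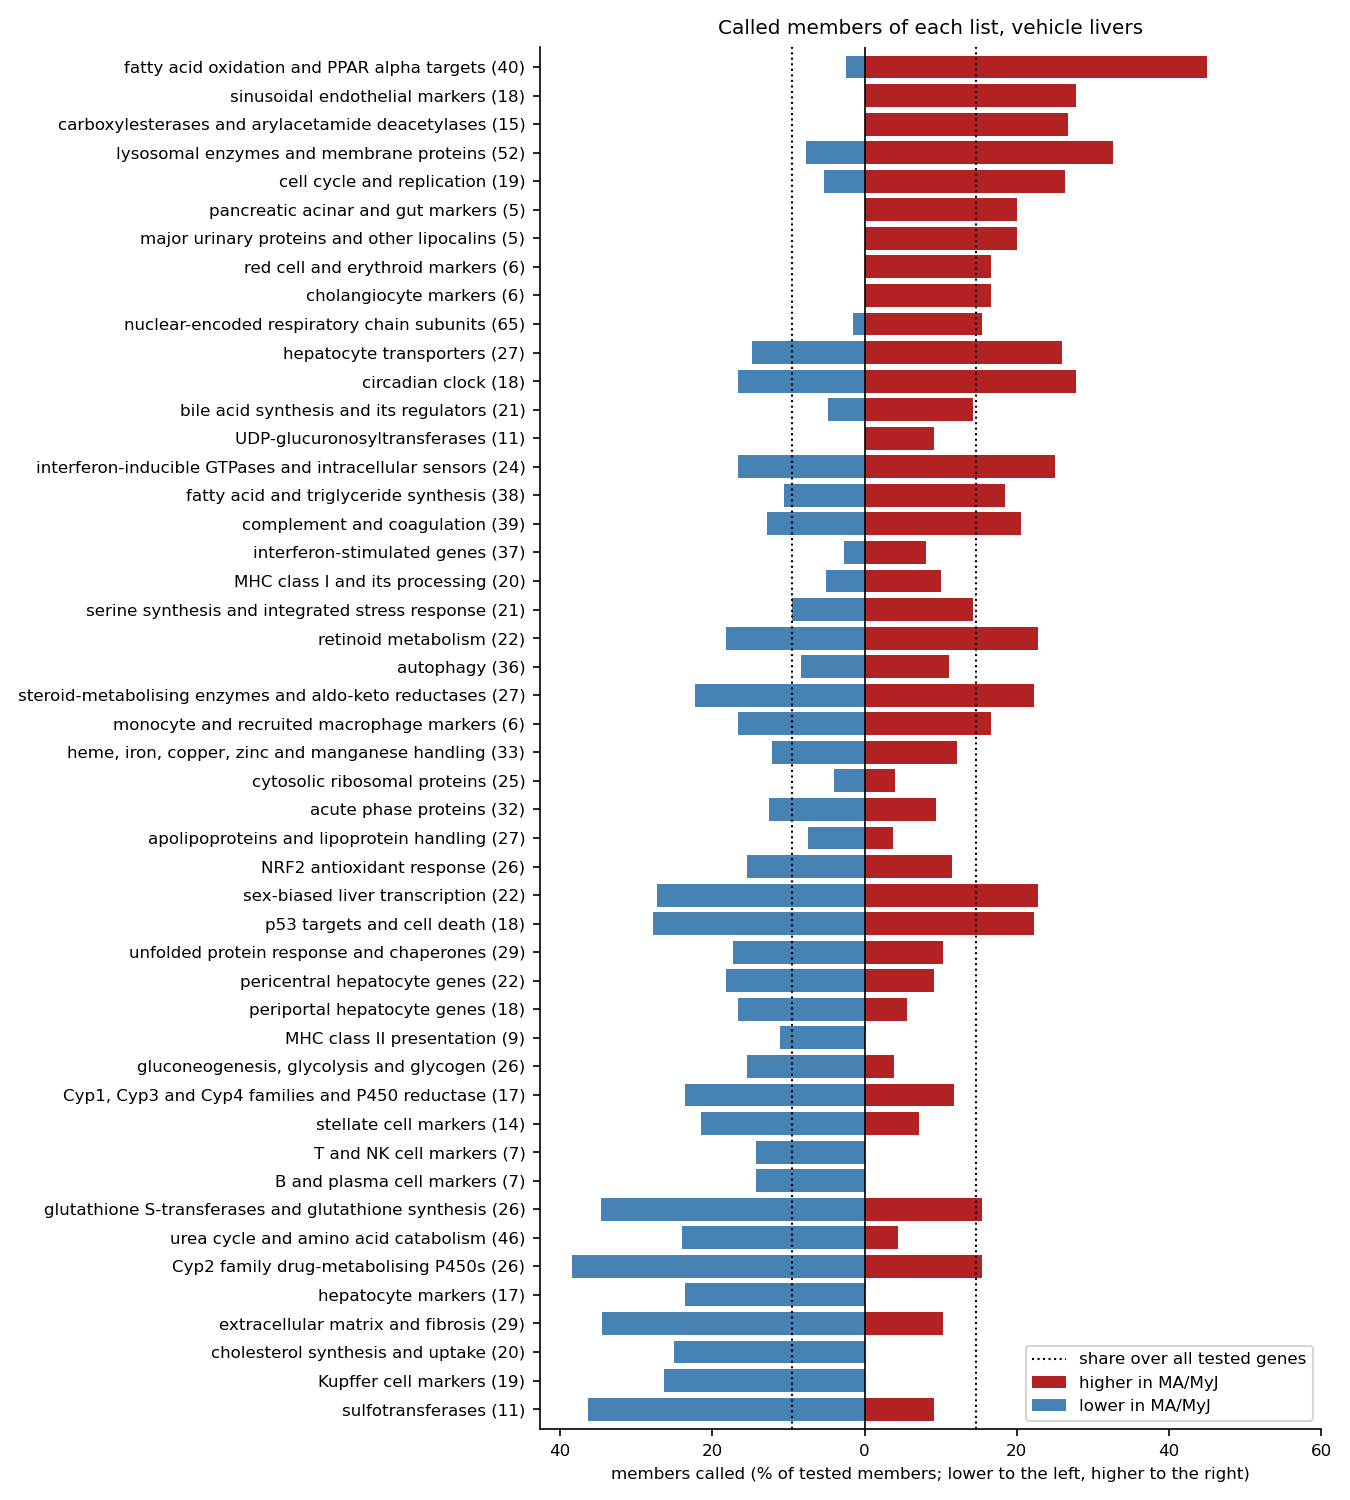
Share of tested members called lower (left) or higher (right) in MA/MyJ, in percent, for each list with at least 5 tested members and 1 called; the number tested is in brackets and dotted lines mark 14.6% and 9.5%, the shares over all genes. Fatty acid oxidation and lysosomal genes extend farthest to the right, and Cyp2 genes, sulfotransferases, glutathione genes and matrix genes to the left.

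The strain comparison was repeated in PF-04287881-treated animals, with 2 WSB/EiJ arrays and 4 of each other strain, none of which the vehicle comparison used. In these 14 arrays 4406 genes (35.3%) were called. Of the 3013 genes called in vehicle animals, 2700 had the same sign in treated animals and 1701 were called with the same sign, which is 56.5% of the vehicle calls and 38.6% of the treated calls. Only 33 were called with the opposite sign. All 34 genes named for size or gap kept their direction, and 31 were called again, all but Rec114, Sult1e1 and Sult2a2. Cox6b2, Zfp874a, Abcb1b, Cyp2r1 and Rec114 are among the 34 but passed the filter only through MA/MyJ arrays. For them the treated values are descriptions and not a repeated test, though all but Rec114 are counted in the 31. Bub3, for which no direction is drawn, is counted as well. A sequence difference under a probe would recur in treated animals of the same strain, and this was not tested. Dennd10 differed by -2.91 in treated animals, close to its vehicle value of -2.75, and the measured difference of Cox6b2 was 5.17.

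Counts called again within the gene groups follow, beside 56.5% of all vehicle calls. Differences between the groups were not tested. All 18 higher genes of fatty acid oxidation had the same sign in treated animals and 15 were called. Of the 17 higher lysosomal genes 9 were called again with the same sign, and of the 9 lower glutathione genes 6 were. Of the 5 lower Kupffer cell markers and the 4 lower sulfotransferases, none was called again, and of the 10 lower matrix genes 2 were.

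The difference between the strain contrast in treated and in vehicle animals was itself called in 594 genes (4.76%), 237 of them called in vehicle animals. Gstm2 was -2.57 in vehicle and -1.25 in treated animals, a difference of 1.32. Cyp2j6 was -1.28 and -0.26, and Hexa was -1.52 and -0.79, so these 3 genes were closer to the other strains under treatment. Tcf24 fell from 2.43 to 0.97 and Spc25 from 1.83 to 0.68, while Itih5 moved away from the other strains, from -3.35 to -4.11. Nfil3 was 1.20 in vehicle and 0.09 in treated animals, and Arntl was 0.68 and 1.72. The count of 594 was 91 when WSB/EiJ treated animal 3 was included, and it ranged from 238 to 1054 when 1 array was left out.

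**Figure D5:**
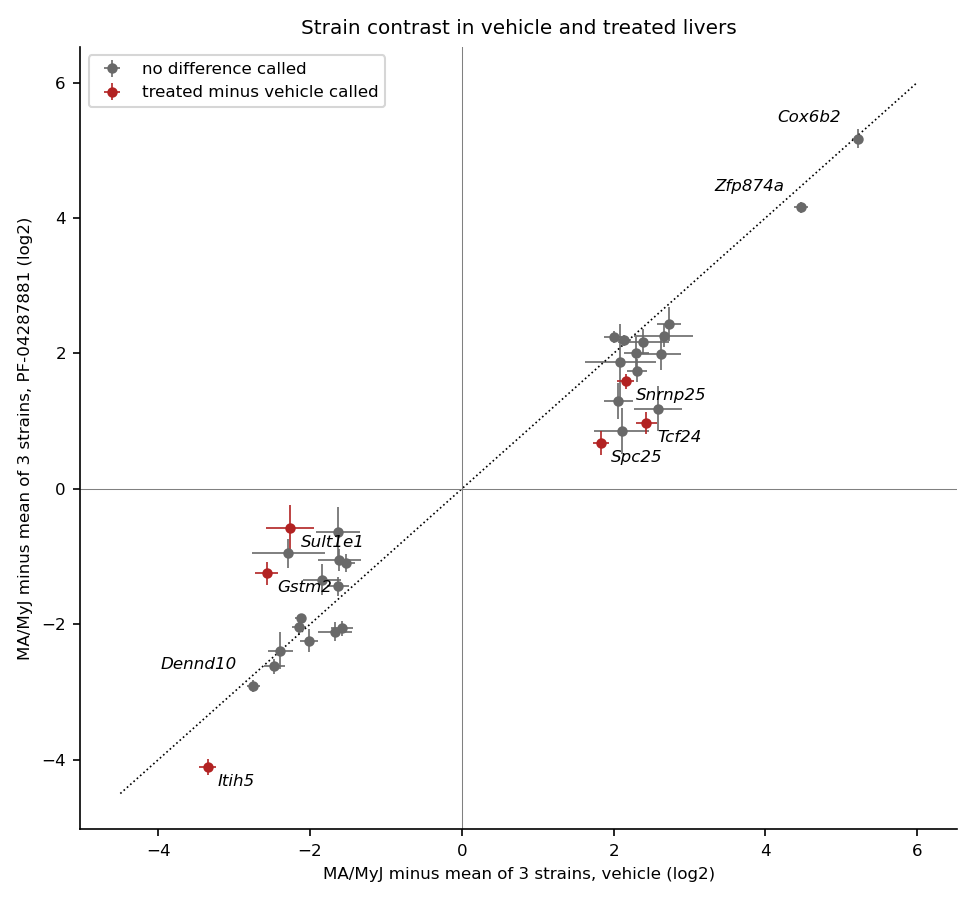
MA/MyJ minus the mean of the 3 strains in vehicle animals (horizontal, log2) and in PF-04287881-treated animals (vertical, log2) for the 34 genes named for size or gap; bars are standard errors and the dotted line marks equal values. Cox6b2, Zfp874a and Dennd10 lie near the line, and the 6 genes in red, Gstm2 and Itih5 among them, differed between vehicle and treated animals.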

How the data were processed

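The deposited values are log2 expression per probe set, which the authors made with Affymetrix Power Tools and RMA, per the submitters' processing notes. RMA corrects the background, equalises the distributions of the arrays and summarises each probe set. Tool versions, detection calls, scan dates and a genome build are not given in the sources used here, so batches of scanning could not be examined, and positions are given only for the printed promoters. Precision is limited by the number of arrays.

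Of 44721 probe sets, 34728 carried 1 gene symbol, 872 several and 9121 none. Symbols were updated by Entrez number from a GRCm38.p6 gene table, which matched 34525 of these probe sets, and the printed promoters come from the same assembly. For each gene the probe set that was brightest on average across the 31 arrays was used. Genes were tested when above the median of all values, 6.49, in at least 4 of the 16 vehicle arrays, which left 12491 of 18147 genes and set 5656 aside as dim. A fold change of a dim gene is compressed by background.

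A mean per strain was fitted on the 16 vehicle arrays (limma 3.58.1; R 4.3.3; the reader package data.table, version 1.17.8). The contrast was MA/MyJ minus the mean of NZW/LacJ, SM/J and WSB/EiJ, two-sided, with 12 residual and 3.52 prior degrees of freedom and Benjamini-Hochberg adjustment over all tested genes. Errors after ± are standard errors of that difference. Treated animals were fitted on 14 arrays, and the difference between treated and vehicle contrasts on 30. WSB/EiJ treated animal 3 was left out of these fits.

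On simulated data over 12491 genes, the vehicle contrast recovered 79 of 100 genes changed by 0.5 log2 units and 94 of 100 changed by 1. It called 185 genes, 6.49% of them falsely, and 0 genes where nothing was changed. The simulation drew independent normal noise with 1 SD per gene for all strains. In the data the median SD within a strain was 0.183 in WSB/EiJ and 0.0885 in NZW/LacJ, so these rates need not hold for the real arrays.

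Named genes were the 15 largest differences per direction beyond all 3 strain means, the 8 largest gaps per direction among genes called against each strain, and the 4 largest called members of each of 50 lists, 176 genes in all. Of these the text gives values for the 34 genes of the first parts and for 59 of the list members. The 59, and 14 further list members, were chosen after their values were seen. Another 645 tested genes with predicted names were counted but not named. The comparison, the lists and their members were chosen with earlier results of these data known.

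Animal numbers did not pair the samples. Deviations of same-numbered animals of different strains correlated between -0.274 and 0.161 over 24 pairs, 3 of them above 0.1, and those of other animals between -0.237 and 0.297. The alternatives changed the filter, the arrays fitted, the replicate block, centring, the variance prior, the choice of probe set, the strains in the reference, and left out each array.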

Additional observations from a re-analysis of the deposited data

Results flagged for a closer look

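In 107 named genes, 428 strain groups of 4 vehicle arrays were examined for an animal that lay far from the other 3 for the width of its group. Of these, 24 held such a value, where chance gives about 1 in 20. SM/J groups held 12 of them, MA/MyJ groups 6, NZW/LacJ groups 3 and WSB/EiJ groups 3, and SM/J animal 1 alone accounted for 9. The cause was not tested.

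SM/J animal 1 was above its group for Nlrp12 at 7.51, Cyp4a12a at 10.21, Ehd3 at 10.06 and Ahsg at 14.55. It was below its group for Dennd10 at 9.70, Sult2a2 at 12.54, Scarb1 at 12.39, Cyp2c37 at 11.45 and Sult1c2 at 7.66. Among other SM/J animals, Cyp2b10 was high at 10.15 in animal 4, Fcna was high at 10.82 in animal 3 and Nqo1 was low at 7.70 in animal 2.

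Among MA/MyJ animals, animal 3 was high for Scarb1 at 11.63, Cps1 at 13.98 and Csf1r at 10.51. Animal 4 was high for Pdk4 at 10.90 and Dnase1l3 at 9.64, and animal 2 was low for Cd68 at 6.46. In NZW/LacJ, Cps1 at 14.12 and Gstm6 at 8.42 were high in animal 2, and Col14a1 was low at 8.72 in animal 1. In WSB/EiJ, Abcb1b at 5.14 and Dhcr7 at 9.63 were high in animal 3, and Rora was high at 11.58 in animal 2.

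For 14 of the 107 genes the strain contrast differed between treated and vehicle animals in the limma fit over 30 arrays. The treated contrast minus the vehicle contrast was negative for Tcf24 at -1.47, Spc25 at -1.16, Nfil3 at -1.11, Itih5 at -0.76, Snrnp25 at -0.58 and Galns at -0.49. It was positive for Sult1e1 at 1.68, Gstm2 at 1.32, Arntl at 1.04, Cyp2j6 at 1.02, Npas2 at 0.84, Hexa at 0.73, Pygl at 0.48 and Sult1a1 at 0.34. Arntl, Npas2 and Itih5 were farther from the other strains in treated animals, and the remaining 11 were closer to them.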

How the results depend on the processing

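The count of genes called against each strain, 557, was 1052, 1208 and 1142 when NZW/LacJ, SM/J or WSB/EiJ was left out of the reference, and the count without overlap, 655, was 1078, 1218 and 1517, since fewer strains and arrays then have to be exceeded. The treated contrast called 2313 genes in place of 4406 with all 15 treated arrays. The difference between treated and vehicle contrasts, 594 genes, was 91 with all 31 arrays and 1657, 976 and 161 without NZW/LacJ, SM/J or WSB/EiJ in the reference, and the cause was not tested. It was 392, 322 and 238 without MA/MyJ vehicle animals 1, 2 and 3, 295, 315 and 388 without MA/MyJ treated animals 2, 3 and 4, and 1054 without WSB/EiJ vehicle animal 3. With 1 array left out, the calls ranged from 2249 to 3585, higher calls from 1344 to 2172, lower calls from 859 to 1414, genes beyond all 3 means from 1882 to 2883, genes called against each strain from 435 to 731, genes without overlap from 658 to 835, and treated calls from 3250 to 4556. The share of genes with another probe set called in the same direction ranged from 50.5% to 57.9%. The replicate block, which has no basis in the labels, gave 2758 calls, 2245 beyond all 3 means and 519 against each strain. Directions reversed in 4 of 1275 values of the 107 named genes under the other settings: Mgst2 was 0.10 without NZW/LacJ, H2-D1 was -0.64 as the mean of its probe sets and -0.57 without sets of suffix s or x, and Uqcr10 was -2.12 as the mean of its probe sets. A further 76 of these values no longer passed the test, 38 of them from a change of the reference strains. With 1 array left out, 53 of 1700 values no longer passed and 0 reversed, and the 53 lay in 16 genes, among them C1qa with 12, Arntl with 9 and Cd68 with 6. When strain-specific probe sets were chosen on all 15 treated arrays, 12 of 16 vehicle arrays scored highest on their own strain, the 4 NZW/LacJ arrays scoring highest on WSB/EiJ. Signal over background was not measured, since detection calls were not used here.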

Other observations

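Genes of retinoid metabolism, a group not described above, were called in both directions in MA/MyJ, 5 higher and 4 lower of 22 tested, 40.9% in all beside 24.1% of all tested genes. Of 29 genes of the unfolded protein response and chaperones, 3 were higher and 5 lower, 27.6% in all, and all 8 lay beyond the 3 strain means. Of 25 cytosolic ribosomal proteins, 1 was higher and 1 was lower, below the share over all genes.

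Some neighbouring genes were called together. The gene next to Atl3 in the annotation, Plaat3, an acyltransferase and phospholipase of lipid metabolism, was at -1.83 ± 0.10 (limma, adjusted p = 6.4e-09). Plaat3 measured 6.34 in MA/MyJ and 6.22 in WSB/EiJ against 9.28 in NZW/LacJ and about 9 in SM/J, so it was low in both MA/MyJ and WSB/EiJ, whereas Atl3 was low in MA/MyJ alone. The gene next to Snrnp25, Rhbdf1, an inactive rhomboid protein, was 1.08 ± 0.12 higher, with MA/MyJ at 9.62, NZW/LacJ at 9.38, SM/J at 8.26 and WSB/EiJ at 7.98. Its order of strains was that of Snrnp25. These neighbours were chosen after their values were seen.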
